A study of Mus musculus with 48 samples.

Results

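The 10 neutrophil granule genes described here are Lcn2, Ngp, Camp, Ltf, Olfm4, Cd177, Mmp8, Mmp9, Chil3 and Retnlg. They were chosen by symbol, each as 1 row of the gene count tables, out of 54735 genes listed. The study asked how IL-33 and its receptor, which Il1rl1 encodes, bear on the passage of spleen monocytes into red pulp macrophages (RPMs), the cells that take up aged red blood cells and recycle their iron. Cells were sorted fresh from the spleens of 10-week-old male Balb/c mice, 4 wild type (WT) and 4 labelled IL1RL1-/-. Monocytes were gated as Ly6Glo CD11bhi F4/80-, the intermediate pre-RPMs as Ly6Glo CD11bhi F4/80lo, and RPMs as Ly6Glo CD11blo/- F4/80hi. Each mouse gave 1 RNA-seq library of each cell type, which makes 24 libraries in 6 groups of 4.

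Neutrophils carry their proteins in granules that form in sequence while the cell matures in the bone marrow. Primary granules come first, secondary or specific granules next, and tertiary or gelatinase granules last. The transcripts of each class are made mostly in the precursor that builds it. Lcn2, Ngp, Camp, Ltf and Olfm4 encode cargo of secondary granules and are called the secondary granule genes below. That name does not settle the granule class of the other members. Mmp8 and Mmp9 encode the neutrophil collagenase and gelatinase B, and Cd177 encodes a surface glycoprotein of neutrophils that is also kept in granules. Chil3 and Retnlg encode secreted proteins, a chitinase-like protein and a resistin-like protein, and are known from neutrophils and from other myeloid cells too. All 3 sort gates took Ly6G-low cells, a choice that leaves out most mature neutrophils.

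The libraries held 3562367 to 6559454 counts (median 4728764.5), of which a single gene, Gm42418, took 24.4 to 38.8%. Levels are given as CPM, counts as a share of the library's total scaled by the trimmed mean of M-values (TMM). A floor of 3 counts came to 0.457 to 0.842 CPM. The RPM gate was borne out by 8 RPM markers. Their summed level was 25.6 to 80.8 CPM in monocytes, 112 to 287 in pre-RPMs and 6005 to 8426 in RPMs. Monocyte markers did not set monocytes apart from pre-RPMs. The summed level of 6 classical monocyte markers was 568 to 2271 CPM in WT monocytes and 1718 to 2767 in WT pre-RPMs. Under the IL1RL1-/- label it was 1004 to 2806 and 2209 to 2909 CPM. For 6 nonclassical markers the WT ranges were 922 to 1348 and 796 to 1041 CPM. Il1rl1 itself stood at 1.95 to 4.28 CPM in WT and 12.5 to 15.3 CPM in knockout-labelled monocytes, at 3.19 to 5.71 against 11.8 to 12.9 CPM in pre-RPMs, and at 1.06 to 3.00 against 0.224 to 1.28 CPM in RPMs. In monocytes and pre-RPMs the level was thus higher, not lower, under the IL1RL1-/- label. Counts over the whole gene do not say which part of it is read, so they cannot test the labels. Every genotype direction below is that of the labels. One library, the WT pre-RPMs of mouse 3, stood apart. Its summed level of 7 erythroid markers was 638 CPM, against 11 to 94.0 in the other 3 WT pre-RPM libraries.

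In the GRCm38 annotation, Camp (ENSMUSG00000038357) spans chr9:109847379-109849617 on the minus strand. Ngp (ENSMUSG00000032484) spans chr9:110419747-110423012 and Ltf (ENSMUSG00000032496) chr9:111019271-111042767, both on the plus strand. These 3 genes for antimicrobial granule proteins thus lie close together on chromosome 9, and Mmp8 (ENSMUSG00000005800) lies farther off on it at chr9:7558456-7568485. Chromosome 2 carries Lcn2 (ENSMUSG00000026822, chr2:32384633-32388252, minus strand) and Mmp9 (ENSMUSG00000017737, chr2:164940780-164955850). The remaining members are Chil3 (ENSMUSG00000040809, chr3:106147554-106167564, minus strand), Cd177 (ENSMUSG00000052212, chr7:24743983-24760311, minus strand), Olfm4 (ENSMUSG00000022026, chr14:79984081-80023139) and Retnlg (ENSMUSG00000022651, chr16:48872621-48874496). All 10 are protein coding, and the counts cover their exons, untranslated parts included.

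RefSeq promoter windows on GRCm38.p6 were at hand for 9 of the 10 members. The windows below belong to the secondary granule genes that moved together between monocytes and pre-RPMs, and to Retnlg, which moved the other way. Each is the stretch of the 250 bases before the RefSeq start that comes before the first exonic base of the annotation used for counting. The Lcn2 window opens within an exon, so none of it is printed, and that of Olfm4 lies within an intron of the counted gene. Capitals mark a match to TTGCNNAA, a core of the sites bound by C/EBP factors, on either strand.
Ngp, chr9:110419558-110419746, plus strand: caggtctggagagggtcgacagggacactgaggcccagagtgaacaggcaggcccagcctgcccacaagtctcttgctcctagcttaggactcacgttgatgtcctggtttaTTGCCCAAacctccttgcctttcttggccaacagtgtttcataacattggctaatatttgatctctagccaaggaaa
Ltf, chr9:111019042-111019270, plus strand: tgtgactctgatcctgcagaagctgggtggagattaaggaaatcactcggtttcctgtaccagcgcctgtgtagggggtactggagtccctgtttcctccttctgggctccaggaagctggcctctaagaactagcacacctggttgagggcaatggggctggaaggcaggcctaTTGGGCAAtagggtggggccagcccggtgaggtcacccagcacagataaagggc
Camp, chr9:109849618-109849706, minus strand: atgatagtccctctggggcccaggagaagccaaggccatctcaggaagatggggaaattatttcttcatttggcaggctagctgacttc
Olfm4, chr14:80000052-80000250, plus strand: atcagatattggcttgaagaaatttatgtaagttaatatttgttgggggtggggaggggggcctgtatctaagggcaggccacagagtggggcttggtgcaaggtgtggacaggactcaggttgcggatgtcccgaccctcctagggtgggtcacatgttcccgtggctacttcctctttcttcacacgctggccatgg
Retnlg, chr16:48872358-48872607, plus strand: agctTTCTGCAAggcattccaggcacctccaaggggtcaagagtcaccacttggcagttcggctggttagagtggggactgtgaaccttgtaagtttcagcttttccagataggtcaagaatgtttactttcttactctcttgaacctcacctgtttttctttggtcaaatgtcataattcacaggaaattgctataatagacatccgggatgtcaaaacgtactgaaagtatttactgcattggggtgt
Over the whole windows of 250 bases, TTGCNNAA was found in 5 of the 9 members (Lcn2, Ngp, Ltf, Retnlg and Mmp8) and in 9.56% of all 32851 promoters. It was 1 of 15 letter patterns searched, and is shown because it was seen to recur. Camp and Olfm4, which moved with Ngp and Ltf, held no match, and Retnlg, which moved the other way, held one. A match describes letters and not a bound site.

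Per kilobase of exon, Ngp and Camp had the highest levels of the set in monocytes of both genotypes. Mean CPM per kilobase in WT monocytes was 289 for Ngp, 206 for Camp, 75.6 for Ltf and 37.5 for Lcn2, and 5.21 to 24.9 for the other members. The same 4 genes led in knockout-labelled monocytes, with 323, 219, 86.9 and 41.3. Retnlg led in pre-RPMs instead, with 165 CPM per kilobase in WT and 114 in knockout-labelled cells. It was followed there by Cd177 in WT cells, with 30.9, and by Ngp in knockout-labelled cells, with 40.9. In RPMs no member exceeded a mean of 3.31 CPM per kilobase.

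**Figure D1:**
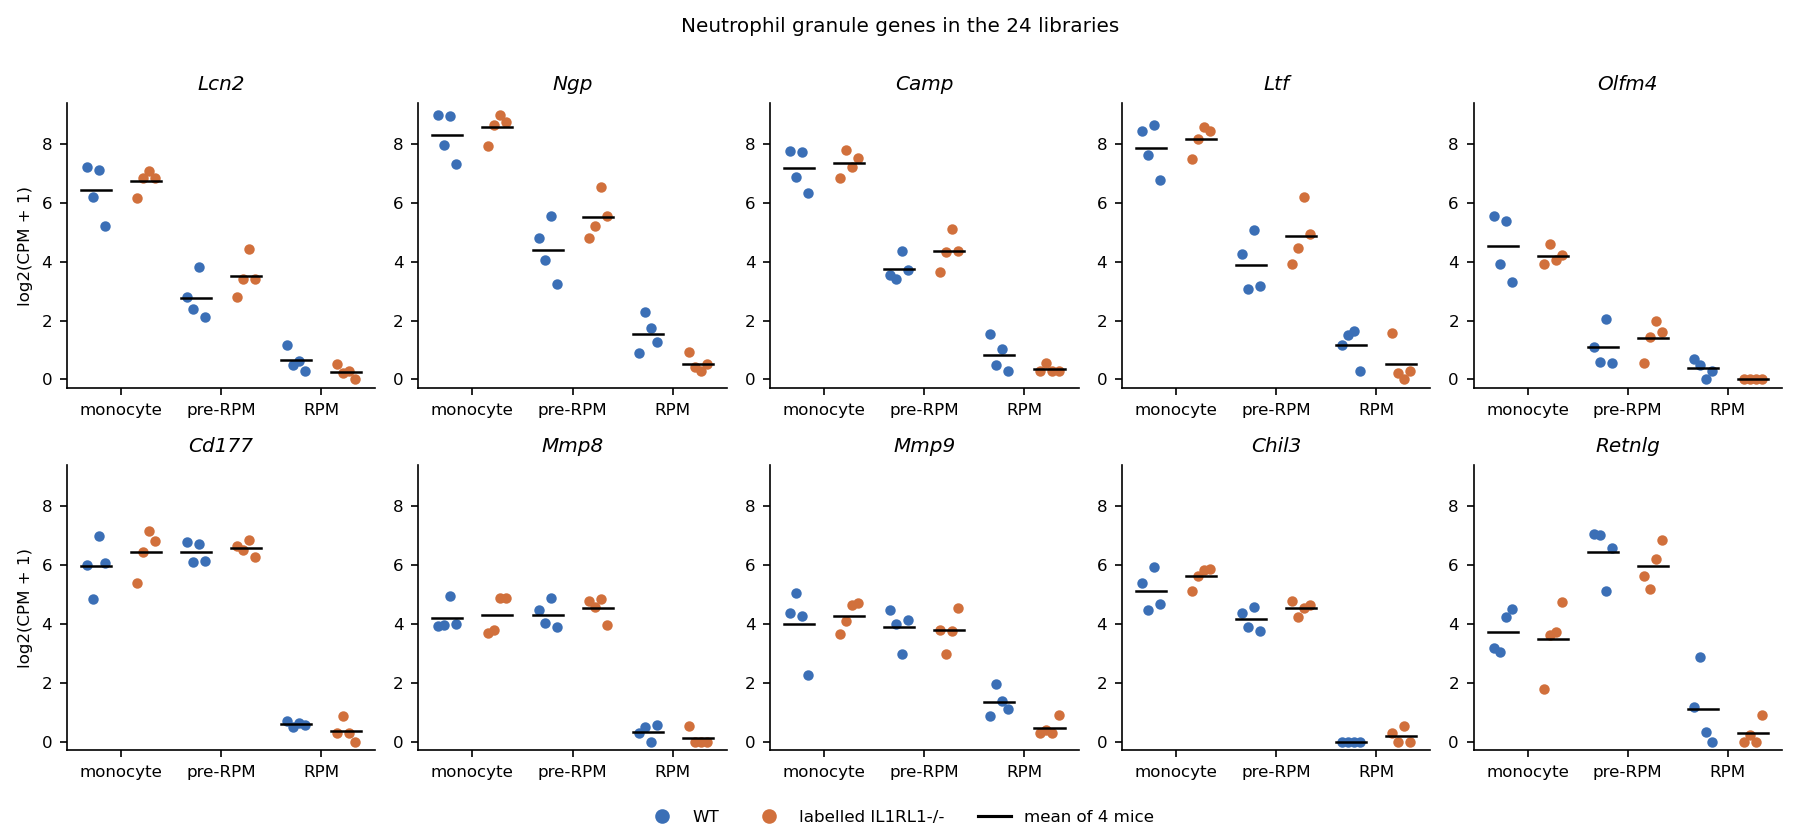
Level of each granule gene in each of the 24 libraries, as log2(CPM + 1), by cell type, with WT mice in blue, mice labelled IL1RL1-/- in orange and a bar at the mean of 4 mice. The top row falls from monocytes to pre-RPMs, Cd177 and Mmp8 are level between these and near 0 in RPMs, and Retnlg peaks in pre-RPMs.

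The first comparison asked how the members differ between monocytes and pre-RPMs. Lcn2, Ngp, Camp, Ltf and Olfm4 fell, by 12- to 19.9-fold in WT and by 7.96- to 9.95-fold in knockout-labelled mice. They are also the members called lower in both genotypes, so the shared fall describes these 5 and supports nothing further. Cd177, Mmp8 and Mmp9 were called in neither genotype, and Retnlg rose in both. Of the 10 members, all tested, 5 fell and 1 rose in WT mice, by edgeR's quasi-likelihood test (a call asks for an adjusted p under 0.01 with a log2 fold change of more than 1 in size). Over all genes tested there, 3.25% fell and 0.316% rose. In knockout-labelled mice 6 members fell and 1 rose, beside 3.88% and 0.974% of all genes tested. The median log2 fold change of the members was -2.33 in WT and -2.05 in knockout-labelled mice, where that of all genes was near 0. In sorted bulk samples, fewer cells of a type and less RNA in each of them cannot be told apart.

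Lcn2 encodes lipocalin-2, which binds bacterial siderophores and so withholds iron. It stood at 147, 72.5, 139 and 35.7 CPM in the monocytes of WT mice 1 to 4, and at 6.05, 4.20, 13 and 3.33 CPM in their pre-RPMs. The knockout-labelled monocytes had 71.1, 115, 134 and 113 CPM and the pre-RPMs 5.91, 9.67, 20.5 and 9.69 CPM. Every monocyte library was above every pre-RPM library, and among WT monocytes mice 2 and 4 were low. The log2 fold change was -3.88 in WT (SE 0.50, adjusted p = 0.000739) and -3.28 in knockout-labelled mice (SE 0.29, adjusted p = 4.73e-05).

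Ngp, which encodes neutrophilic granule protein, a relative of the cystatins and cathelicidins, had the highest CPM of the set in monocytes. Its WT monocyte libraries held 510, 247, 497 and 159 CPM, and the pre-RPM libraries 26.7, 15.5, 45.6 and 8.57 CPM. The knockout-labelled mice had 241, 403, 508.2 and 429 CPM in monocytes and 27.0, 35.8, 91.4 and 45.9 CPM in pre-RPMs. WT mice 2 and 4 were again the low ones in monocytes, and mouse 3 was the high one in pre-RPMs of both genotypes. The log2 fold change was -3.87 in WT (SE 0.50, adjusted p = 0.000812) and -3.00 in knockout-labelled mice (SE 0.34, adjusted p = 0.000168).

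Camp encodes the antimicrobial cathelicidin. It went from 218, 117, 210 and 79.3 CPM in WT monocytes to 10.7, 9.72, 19.6 and 12.1 CPM in WT pre-RPMs. In the knockout-labelled mice it went from 113, 221, 149 and 181 CPM to 11.6, 19.3, 33.9 and 19.6 CPM. The groups did not overlap, and the log2 fold changes were -3.58 (SE 0.35, adjusted p = 0.000297) and -2.99 (SE 0.28, adjusted p = 5.86e-05).

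Ltf encodes lactoferrin, an iron-binding protein. Its WT monocytes had 343, 197, 396 and 108 CPM and the pre-RPMs 18.1, 7.35, 32.6 and 8.09 CPM, which gave a log2 difference of -3.97 (SE 0.51, adjusted p = 0.000739). The knockout-labelled monocytes had 180, 288, 384 and 347 CPM and the pre-RPMs 14.2, 21.2, 72.0 and 29.5 CPM, which gave a log2 difference of -3.16 (SE 0.41, adjusted p = 0.000396). Mouse 3 of each genotype was highest in both cell types, and the cell types did not overlap.

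Olfm4 encodes olfactomedin-4, a glycoprotein found in the granules of a subset of neutrophils, and was the least abundant of the 5 by CPM. WT monocytes held 45.7, 14.2, 40.4 and 8.84 CPM and WT pre-RPMs 1.16, 0.525, 3.19 and 0.476 CPM. The knockout-labelled libraries held 14.3, 23.3, 15.5 and 17.9 CPM in monocytes and 0.473, 1.70, 2.98 and 2.05 CPM in pre-RPMs. Both differences were called, at -4.32 in WT (SE 0.67, adjusted p = 0.00217) and -3.31 in knockout-labelled mice (SE 0.32, adjusted p = 6.86e-05), and the groups did not overlap. The WT call was lost without WT pre-RPM mouse 1, 2 or 4 (adjusted p up to 0.0135 in edgeR).

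Over the 16 monocyte and pre-RPM libraries, deviations from the group mean of log2 CPM had a Pearson r of 0.81 to 0.96 in the 10 pairs of the 5 genes, as a description over libraries that share mice. Over all 24 libraries, RPMs included, r ran from 0.43 for Ngp with Camp to 0.85. Without WT pre-RPM mouse 3 the 5 log2 fold changes in WT lay between -5.17 and -3.84, and all 5 were called. Sums of markers of some other cell types also fell from monocytes to pre-RPMs. The summed level of 8 neutrophil markers was 439 to 1427 CPM in WT and 505.8 to 1181 in knockout-labelled monocytes, 142 to 208 and 176 to 266 in pre-RPMs, and 39.9 to 51.5 in RPMs. S100a8 and S100a9, which encode the calprotectin subunits of neutrophils and monocytes, carried most of that sum in monocytes. S100a8 had a log2 fold change of -3.99 in WT and -3.26 in knockout-labelled mice. Of the defining neutrophil genes, Ly6g was at 1.65 to 11 CPM in monocytes and 0 to 2.08 in pre-RPMs, and Mrgpra2a was at 0 in 5 of the 6 groups. Csf3r, the receptor for G-CSF, was at 38.6 to 108 CPM in monocytes and 90.6 to 144 in pre-RPMs. The summed level of 6 natural killer (NK) cell markers was 466 to 1744 CPM in monocytes and 11.7 to 130 in pre-RPMs. Over the 16 monocyte and pre-RPM libraries, deviations of the 5 genes had a Pearson r of 0.72 to 0.87 with the neutrophil sum. With the NK cell sum r was -0.18 to -0.025. The study's flow cytometry counted these populations among cells low in NK1.1, an NK cell marker, whereas the labels of the sorted samples name no such gate. The part of neutrophil and NK cell content in these results was not tested.

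Cd177 and the 2 metalloproteinase genes were not called between monocytes and pre-RPMs in either genotype. Cd177 stood at 62.5, 28.0, 126 and 66.5 CPM in WT monocytes and at 109, 68.3, 104 and 69.8 CPM in WT pre-RPMs. The knockout-labelled mice had 41.3, 85.9, 143 and 111 CPM in monocytes and 99.6, 90.1, 115 and 75.7 CPM in pre-RPMs. The groups overlapped, and mouse 3 had the highest monocyte value in each genotype. The log2 fold change was 0.31 in WT (2 SE either side, -0.38 to 1.01; adjusted p = 0.572), or -0.03 when scaled by total counts alone, and -0.01 in knockout-labelled mice (-0.56 to 0.55; adjusted p = 0.993).

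Within monocytes, Cd177 ran in the same order of mice as the summed level of 6 classical monocyte markers. That sum was 845, 568, 2271 and 1757 CPM in WT mice 1 to 4 and 1004, 1456, 2806 and 2050 CPM in knockout-labelled mice 1 to 4. Over the 16 monocyte and pre-RPM libraries the deviations of Cd177 and of this sum had a Pearson r of 0.92, a description over libraries that share mice. With the 8 neutrophil markers, r was 0.37. With the nonclassical monocyte and RPM markers it was 0.80 and 0.76, and with the T cell, B cell and NK cell markers -0.70, -0.69 and -0.58. Among the 8 monocyte libraries, r was 0.92 with the classical monocyte markers and -0.92 with the NK cell markers. The summed NK cell markers there ran in the reverse order of mice to Cd177 in both genotypes. Over all 24 libraries, r was 0.63 with both sets of monocyte markers and 0.66 with the RPM markers.

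Mmp8 held 14.1, 14.6, 30.1 and 14.8 CPM in WT monocytes and 21.2, 15.2, 28.4 and 13.8 CPM in WT pre-RPMs. Its knockout-labelled values were 11.8, 13, 28.4 and 28.6 CPM in monocytes and 26.7, 22.9, 28.0 and 14.5 CPM in pre-RPMs. Single libraries set the highest and lowest values, and the cell types overlapped. The log2 fold change was 0.11 in WT (-0.46 to 0.69; adjusted p = 0.817), or -0.24 by total counts alone, and 0.15 in knockout-labelled mice (-0.43 to 0.74; adjusted p = 0.782).

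Mmp9 held 19.7, 32.2, 18.1 and 3.75 CPM in WT monocytes and 21.2, 15, 6.86 and 16.7 CPM in WT pre-RPMs. In the knockout-labelled mice it held 11.6, 16.2, 23.7 and 24.9 CPM in monocytes and 13, 6.95, 12.5 and 22.4 CPM in pre-RPMs. Its spread was wide in every group, and the cell types overlapped. The log2 fold change was -0.29 in WT (-1.27 to 0.69; adjusted p = 0.722) and -0.48 in knockout-labelled mice (-1.11 to 0.16; adjusted p = 0.348).

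Chil3 encodes a chitinase-like lectin also known from alternatively activated macrophages. It went from 40.6, 21.4, 59.9 and 24.6 CPM in WT monocytes to 19.5, 13.9, 22.8 and 12.6 CPM in WT pre-RPMs. In knockout-labelled mice it went from 33.7, 48.3, 55.6 and 57.6 CPM to 26.5, 17.8, 22.3 and 24 CPM. The groups overlapped in WT mice, where the highest pre-RPM library exceeded the lowest monocyte library, and did not overlap in the others. It fell in knockout-labelled mice, with a log2 fold change of -1.11 (SE 0.17, adjusted p = 0.00131). In WT mice the log2 fold change was -1.08 (SE 0.31), and the adjusted p of 0.0418 missed the threshold. With the mouse as a block, since monocytes and pre-RPMs came from the same animal, the adjusted p in WT was 0.00282 and the gene was called. Its near copy Chil4 had no more than 2 counts in any library, as had Retn, Retnla and Retnlb, the near copies of Retnlg.

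Retnlg was the 1 member that rose. WT monocytes had 8.09, 7.19, 17.9 and 21.6 CPM and WT pre-RPMs 132, 130, 33.8 and 95.2 CPM. Knockout-labelled monocytes had 2.46, 11.3, 12.3 and 25.7 CPM and pre-RPMs 48.7, 35.1, 72.0 and 115 CPM. No library overlapped between the cell types, although WT pre-RPM mouse 3 came close to the highest monocytes. The log2 fold change was 2.83 in WT (SE 0.44, adjusted p = 0.00222) and 2.37 in knockout-labelled mice (SE 0.47, adjusted p = 0.00599). The WT call was lost without WT pre-RPM mouse 1 or 4 (adjusted p up to 0.0101), and the other without knockout-labelled monocyte mouse 2 or pre-RPM mouse 1, 3 or 4 (adjusted p up to 0.026), all in edgeR. Without WT pre-RPM mouse 3 the WT value was 3.12.

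The deviations of Retnlg did not run with those of the 5 secondary granule genes, with a Pearson r of -0.15 to 0.0097 over the same 16 libraries. Among pre-RPMs they ran in the same order of mice as Siglecf, a lectin receptor of eosinophils singled out after its values were seen. Of the other eosinophil markers, Ccr3 and Il5ra ran in the order of Retnlg in both genotypes, and Prg2, Epx, Ear1 and Ear6 did not. Prg2 was at 7.44, 16.3, 13.2 and 7.14 CPM in WT pre-RPMs of mice 1 to 4, and Epx was highest there in mouse 3, at 1.23 CPM, where Retnlg was lowest. Siglecf stood at 10.0, 7.09, 1.23 and 2.38 CPM in WT pre-RPMs and at 2.60, 2.04, 5.36 and 6.15 CPM in knockout-labelled pre-RPMs. The summed level of 7 eosinophil markers was 6.87 to 25.8 CPM in monocytes and 39.3 to 85.4 in pre-RPMs. It was 274 to 398 CPM in RPMs, where Ccr3 alone had 268 to 392. The defining eosinophil genes Epx and Ear1 did not exceed 1.36 and 2.38 CPM in any library. Among the pre-RPM libraries of both genotypes, Retnlg deviations had a Pearson r of 0.92 with the summed eosinophil markers and 0.93 with Mmp9. Mmp9 itself had an r of 0.80 with that sum. With the other marker sums the r of Retnlg lay between -0.71 for B cell and 0.40 for T cell markers. The part of eosinophil content in the Retnlg result was not tested.

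**Figure D2:**
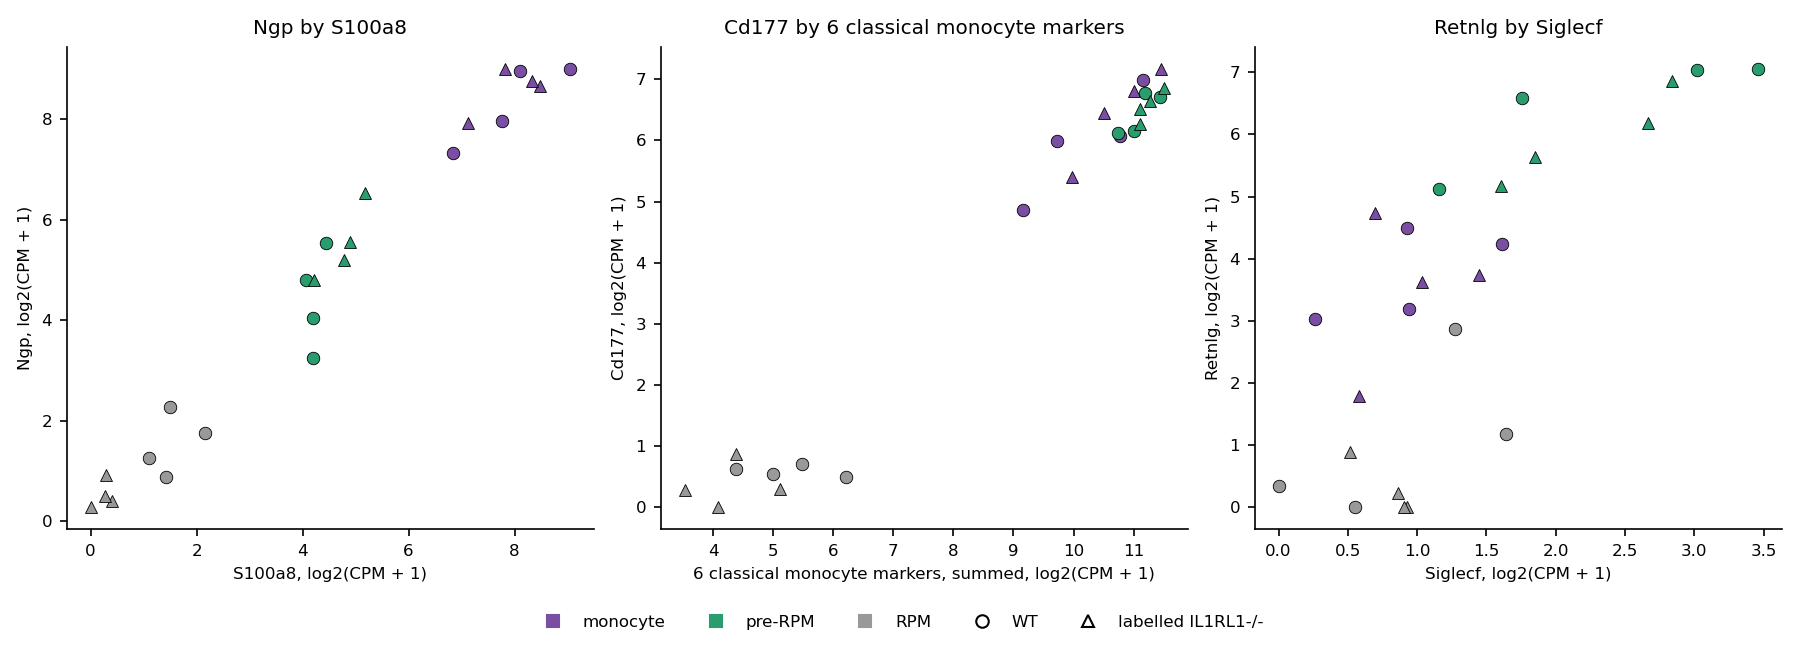
Ngp against S100a8, Cd177 against the sum of 6 classical monocyte markers, and Retnlg against Siglecf, all as log2(CPM + 1), with 1 point for each of the 24 libraries, colours for cell types and shapes for genotypes. The panels were chosen after the values were seen, and the Siglecf levels behind the right panel reach 10.0 CPM, in WT pre-RPM mouse 1.

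The second comparison asked how the members differ between pre-RPMs and RPMs. All of them were low in RPMs, where the 10 together summed to 4.39 to 16.9 CPM in WT and 1.53 to 4.71 CPM in knockout-labelled mice. In each genotype 9 members were tested and all 9 fell, none rose, and Olfm4 did not pass the filter on low counts. Over all genes tested, 10.7% fell and 14% rose in WT, and 11.5% fell and 14.5% rose in knockout-labelled mice. A member near 0 in RPMs passed the filter through its pre-RPM level, so these counts describe the members and support nothing further. Folds are given as ratios of pooled CPM with a 95% interval for counting error alone, since many RPM libraries held 0 to 3 counts.

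Of the secondary granule genes, Ngp, Camp, Ltf and Lcn2 had pre-RPM levels 10.7 to 14.5 times those of RPMs in WT mice, and 53.4 to 103 times under the IL1RL1-/- label. Ngp, with 0.847 to 3.87 CPM in WT and 0.219 to 0.897 CPM in knockout-labelled RPMs, was 11.3 times higher in WT pre-RPMs (8.07 to 16.2) and 103 times higher in knockout-labelled ones (53.9 to 225). The ratios for Camp were 14.5 (8.70 to 25.8) and 67.0 (30.5 to 184). Those for Ltf were 12.3 (8.09 to 19.5) and 56.0 (31.1 to 113). The knockout-labelled RPM counts behind them were few, 9 for Ngp, 6 for Camp and 11 for Ltf over the 4 libraries. For Ltf, 9 of the 11 came from mouse 1, and without that library the log2 fold change fitted by edgeR was -7.78 in place of -5.89. Lcn2 had ratios of 10.7 (5.76 to 22.1) and 53.4 (20.5 to 198). Olfm4 had a ratio of 3.96 in WT (1.56 to 12). It had no count in the knockout-labelled RPMs and was there at least 11.6-fold higher in pre-RPMs, set against a floor of 3 counts over the group. An exact two-sided permutation test of its log2 CPM gave p = 0.114 in WT and p = 0.0286 in knockout-labelled mice, the smallest that 4 against 4 allows (0.228 and 0.19 adjusted over the 10 such tests run).

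The other members had wider gaps in WT mice, apart from Mmp9. Cd177 was 174 times higher in WT pre-RPMs (91.3 to 381) and 262 times higher in knockout-labelled ones (127 to 653). Mmp8 had ratios of 69.8 (29.6 to 217) and 221 (60.8 to 1832), the latter on 2 RPM counts. Mmp9 kept 0.847 to 2.85 CPM in WT RPMs, and its ratios were 9.17 (6.23 to 14.0) and 34.0 (17.0 to 79.5). Chil3 had no count in WT RPMs and was at least 102-fold higher in WT pre-RPMs, and 148 times higher in the knockout-labelled ones (50.2 to 719). Retnlg had ratios of 45.5 (33.0 to 64.6) and 268 (114 to 826). Of its 38 counts in WT RPMs, 31 came from mouse 2.

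**Figure D3:**
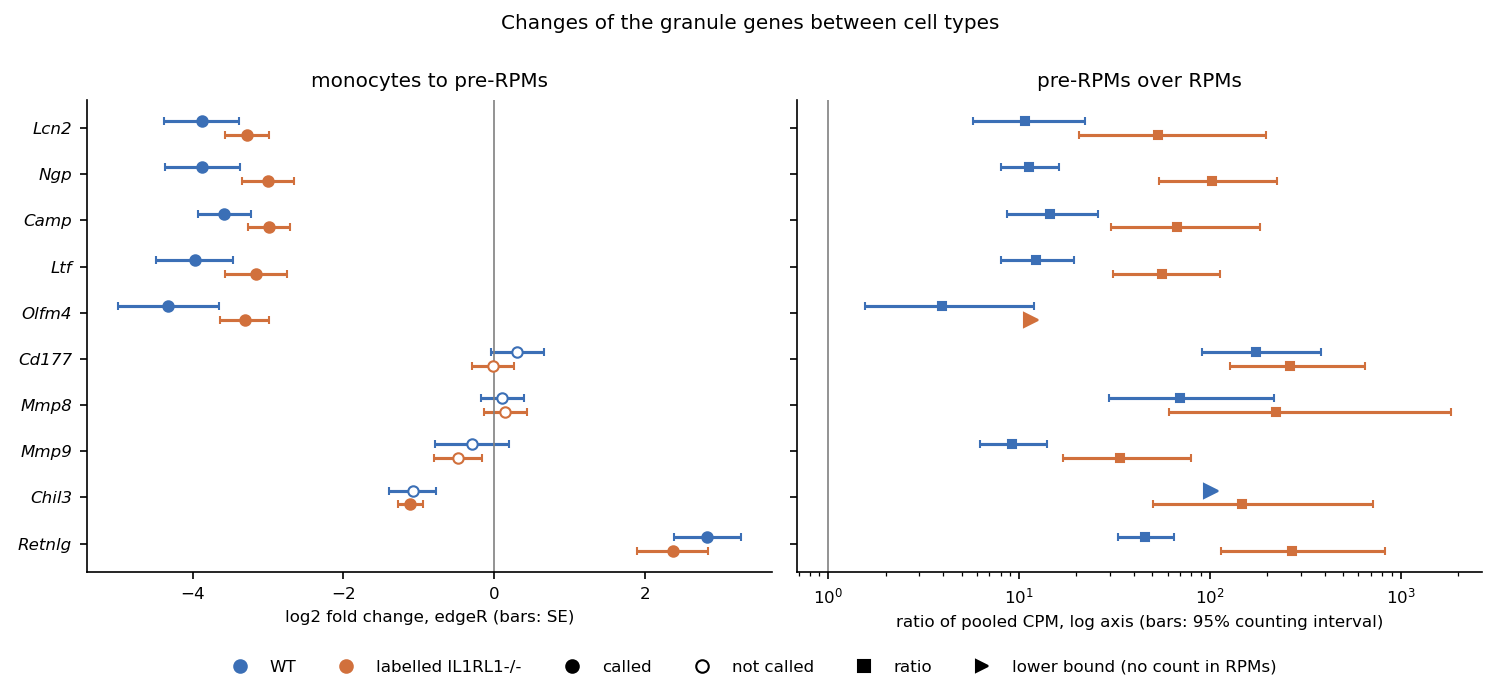
On the left, log2 fold change of each member from monocytes to pre-RPMs with its SE, filled where called, and on the right, the ratio of pooled CPM of pre-RPMs over RPMs on a log axis with its 95% counting interval, WT in blue and the IL1RL1-/- label in orange. Arrowheads are lower bounds, at least 102-fold for Chil3 in WT and at least 11.6-fold for Olfm4 under the IL1RL1-/- label.

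The third comparison set the genotypes side by side. No member was called in monocytes, where 10 were tested and 0.0614% of all genes tested were called at an adjusted p under 0.05. The log2 differences there, knockout-labelled minus WT, ran from -0.62 for Olfm4 to 0.43 for Cd177. No member of the 9 tested was called in pre-RPMs, beside 0.552% of all genes, although 4 had an unadjusted p under 0.05, as 8.8% of all genes tested did. DESeq2 called no member in either cell type. Scaled by total counts alone, Ngp, Camp and Ltf were called in pre-RPMs, and the genes called over the whole table went from 18 higher and 41 lower to 78 higher and 32 lower. With the mouse number as a block, which joins different animals between genotypes, Ngp, Camp and Ltf were called there too (adjusted p = 0.0214, 0.0373 and 0.0343 in edgeR).

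The 4 members with an unadjusted p under 0.05 in pre-RPMs in the main fit were Ngp, Camp, Ltf and Chil3. Ngp had the largest difference, 1.02 (SE 0.38, 2 SE either side 0.25 to 1.79; adjusted p = 0.419 in edgeR). Ltf had 0.99 (0.09 to 1.88; adjusted p = 0.543), Camp 0.66 (0.13 to 1.19; adjusted p = 0.47) and Chil3 0.38 (0.03 to 0.74; adjusted p = 0.562). The genotypes overlapped for each of them. Lcn2 had 0.74 (-0.03 to 1.5; adjusted p = 0.63), and Retnlg -0.53 (-1.22 to 0.15; adjusted p = 0.713). Single libraries moved these values. Without WT pre-RPM mouse 3 Ngp had 1.51 and Ltf 1.53, and without knockout-labelled pre-RPM mouse 3 they had 0.59 and 0.39, none of them called.

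In RPMs no member passed the filter, and 0.233% of the genes tested were called. Exact two-sided permutation tests were run for the 7 members with more than 3 counts in some RPM library. Ngp was 1.42 lower in log2 CPM under the IL1RL1-/- label (0.847, 3.87, 2.40 and 1.39 CPM in WT and 0.897, 0.327, 0.219 and 0.426 CPM in the others; exact p = 0.0571, adjusted 0.19). Mmp9 was 1.27 lower (exact p = 0.0571, adjusted 0.19). One library of each group overlapped with the other group in both. The smallest exact p that 4 against 4 can give is 0.0286.

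The difference between the genotypes in the step between cell types was tested as an interaction. For monocytes to pre-RPMs no member of 10 was called in edgeR, beside 0% of all genes tested (454 of 11960 at an unadjusted p under 0.05), and no member had an unadjusted p under 0.05. For pre-RPMs to RPMs no member of 9 was called, beside 0.107% of all genes. There Ngp had an interaction of -3.19 (SE 1.14, adjusted p = 0.49), Camp -2.17 (adjusted p = 0.586) and Mmp9 -1.82 (adjusted p = 0.651), each with an unadjusted p under 0.05 (0.0112, 0.028 and 0.0444), as 7.52% of all genes tested had. The fitted values rest on the few RPM counts given above. S100a8 and S100a9, which followed these genes in level, were called there, at -3.73 (adjusted p = 0.0112) and -3.23 (adjusted p = 0.00758). In RPMs S100a9 was at 6.77, 4.48, 4.01 and 6.93 CPM in WT and at 1.79, 0.817, 0.658 and 0.639 CPM under the IL1RL1-/- label, a called difference of -2.51 (adjusted p = 0.00816). In pre-RPMs its log2 difference was 0.73 (adjusted p = 0.228). These 3 calls were lost when all 24 libraries shared 1 fit (adjusted p = 0.407 and 0.117 for the interactions of S100a8 and S100a9, and 0.0614 for S100a9 in RPMs).

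**Figure D4:**
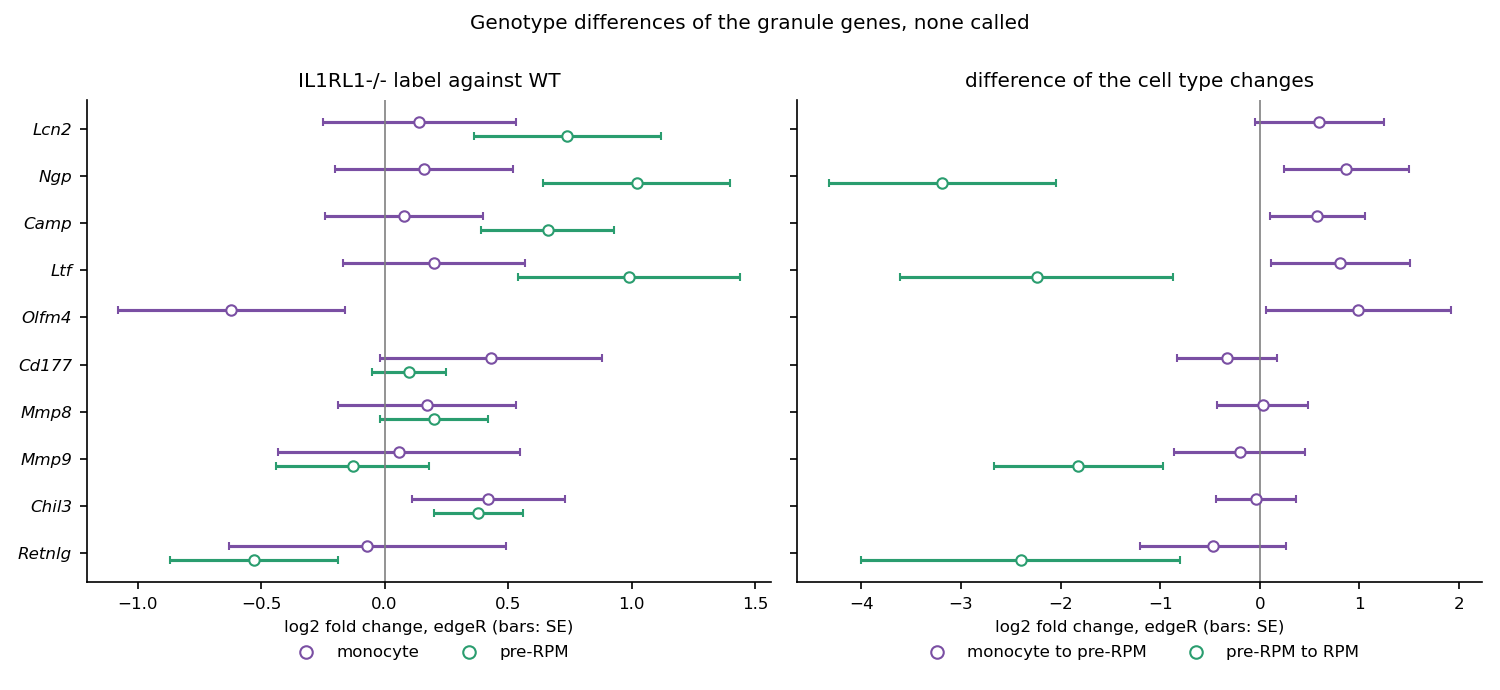
Differences by genotype label on the log2 scale with their SE, on the left within monocytes and pre-RPMs and on the right as the difference of the change between cell types, open circles for members not called. For pre-RPM to RPM only Ngp, Ltf, Mmp9 and Retnlg are drawn, the members with more than 3 counts in some RPM library of each genotype; the Ngp interaction lies at -3.19.

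Other genes of the neutrophil programme were counted in 4 lists. The counts are descriptions, since list genes near 0 in RPMs also passed the filter on low counts through their pre-RPM level. From monocytes to pre-RPMs, 3.25% of all genes tested were called lower and 0.316% higher in WT mice, and 3.88% and 0.974% in knockout-labelled mice. From pre-RPMs to RPMs, 10.7% were called lower and 14% higher in WT mice, and 11.5% and 14.5% in knockout-labelled mice. Of 7 primary granule and promyelocyte genes, 4 were tested between WT monocytes and pre-RPMs and 1 fell, Fcnb, a ficolin (-2.31). Of the 3 tested in knockout-labelled mice, Fcnb (-2.14) and Serpinb1a (-1.67), an inhibitor of neutrophil proteases, fell. None of the list was called between pre-RPMs and RPMs, where 1 was tested.

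Of 14 other secondary and tertiary granule genes, 12 were tested between monocytes and pre-RPMs in each genotype. In WT mice 2 fell, Wfdc21 (-3.76) and Lrg1 (-2.48). In knockout-labelled mice 3 fell, among them Wfdc21 (-3.33) and Lrg1 (-2.03), and Slc11a1, a phagosomal metal transporter, rose (1.11). Between pre-RPMs and RPMs 10 were tested, of which 5 fell and 2 rose in WT and 5 fell and 3 rose in knockout-labelled mice. Lyz2, which encodes lysozyme, went from 3828 to 4276 CPM in WT pre-RPMs to 15.2 to 91.4 in WT RPMs. Hp, which encodes haptoglobin, went from 58.3 to 89.3 CPM to 1.06 to 2.24, and Anxa1 from 67.1 to 93.4 CPM to 1.27 to 4.48, both in WT mice.

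Of 15 mature neutrophil genes, 8 were tested between monocytes and pre-RPMs in each genotype. In WT mice 2 fell, S100a8 (-3.99) and S100a9 (-3.94). In knockout-labelled mice 5 fell, led by the chemokine receptor gene Cxcr2 (-4.13), Ly6g (-3.62) and S100a8 (-3.26). Between pre-RPMs and RPMs 5 of 8 fell and 1 rose in WT, and 4 of 6 fell and 1 rose in knockout-labelled mice. The one that rose was Fpr1, a formyl peptide receptor gene, from 0 to 0.490 CPM in WT pre-RPMs to 19.7 to 33.7 CPM in WT RPMs. Padi4 and Hdc were among those that fell in WT mice.

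Of 8 transcription factor genes of granulocyte development, Gfi1 fell in WT mice from monocytes to pre-RPMs (-2.60), the 1 called of 8 tested, and none of 7 was called in knockout-labelled mice. Between pre-RPMs and RPMs 5 of 6 fell in WT, among them Klf5, Cebpb (-2.47) and Cebpa (-1.67). In knockout-labelled mice 4 of 5 fell, among them Cebpb (-2.36), Spi1 (-1.53) and Cebpa (-1.35). Cebpa, Cebpb, Cebpd and Cebpe encode C/EBP factors, and none of them was called from monocytes to pre-RPMs. Mean CPM over that step went from 4.29 to 4.15 for Cebpe in WT and from 6.27 to 2.96 in knockout-labelled mice. For Cebpa it went from 55.3 to 114 and from 75.2 to 115. For Cebpb it went from 137 to 238 and from 168 to 245, and for Cebpd from 19.8 to 28.7 and from 28.0 to 32.9. Apart from the S100a9 and S100a8 calls above, no gene of these lists was called between the genotypes or in the interactions.

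The genes whose level ran most like each member were ranked by Pearson r of log2 CPM over the 24 libraries, a description over libraries that fall into 3 cell types. S100a8 and S100a9 led for Lcn2 (r of 0.983 with S100a9), Ngp (0.985 with each), Camp (0.988 with S100a8) and Ltf (0.978 with each). Olfm4 ran most like Wfdc21 (0.982), followed by Chil1 (0.964) and Lrg1 (0.961). Chil1, another chitinase-like gene, was at 2.70 to 10.2 CPM in monocytes and 0.236 to 1.86 CPM in pre-RPMs, and fell in both genotypes (-3.43 in WT and -2.82 in knockout-labelled mice).

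The other members ran like different genes. Cd177 was nearest to Sgms2 (0.994), Tppp3 (0.991) and Klf4 (0.990), the last a transcription factor of monocytes. Mmp8 was nearest to Capn2 (0.991), Diaph1 (0.990) and Klf4 (0.988), and Chil3 to Anxa2 (0.987). Mmp9 was nearest to Srgn, which encodes a granule proteoglycan (0.952), Alox5, which encodes arachidonate 5-lipoxygenase (0.951), and the secondary granule gene Pglyrp1 (0.951). Retnlg was nearest to Alox15, which encodes a lipoxygenase of eosinophils and macrophages (0.984), then to F5 (0.964) and Ccl6 (0.958).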

How the data were processed

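RNA from sorted mouse spleen cells was made into libraries with a stranded total RNA kit (pico input). The authors trimmed reads with cutadapt (2.8 in the submitters' processing notes), aligned them to GRCm38 with STAR 2.5.1 and counted exons per gene name with featureCounts 1.6.2 against Ensembl 95, by strand. The deposited values are raw counts per gene, 1 table per library. The study's 24 ATAC-seq samples, of chromatin accessibility, were left aside.

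Each comparison was fitted on all genes with edgeR 4.0.16 (R 4.3.3) in the libraries of its groups, after filterByExpr, with TMM scaling, glmQLFit and glmQLFTest and Benjamini-Hochberg adjustment. Between cell types a gene was called at an adjusted p under 0.01 with a log2 fold change of more than 1 in size; calls needed an adjusted p under 0.05 for genotypes and interactions. Between genotypes within a cell type, p-values measure the spread between mice. Between cell types and in interactions they measure the spread between libraries. The main fits and permutation tests did not pair the cell types of a mouse. Log2 CPM used a prior count of 2. Members below the filter had exact permutation tests where some library held more than 3 counts. Ratios of pooled counts have 95% exact intervals, which cover counting error only. Every member was named, and of each other list up to 3 called genes per comparison. The members and lists were chosen with earlier results of these data known.

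Labels give the same mouse number to the 3 cell types of an animal. Between successive cell types, libraries of one number had deviations from group means that correlated across genes at -0.0394 to 0.3062. Between genotypes, where a number joins different animals, the correlation was 0.1181 to 0.4519 in monocytes. It was 0.0452 to 0.155 in pre-RPMs and 0.1492 to 0.1819 in RPMs. Replicates differed by more than counting noise in all 36 pairs (smallest chi-square per degree of freedom 3.846). The scripts were tested on simulated data. Alternatives were RLE scaling, DESeq2 1.42.0, other filters, 1 fit of all libraries, a replicate block, leaving out each library and, chosen after seeing the data, scaling by total counts alone. Promoter windows came from RefSeq (GRCm38.p6).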

Additional observations from a re-analysis of the deposited data

Results flagged for a closer look

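Single libraries stood apart from the other 3 of their group, by Dixon's test at the 95% level, in 3 of the 51 groups of 4 tested, where chance gives about 1 in 20, or 2.55 groups. Ltf reached 2.02 CPM (9 counts) in the RPMs of mouse 1 labelled IL1RL1-/-, against 0 to 0.213 CPM in the other 3. Mmp8 reached 30.1 CPM in the monocytes of WT mouse 3, where the others had 14.1 to 14.8 CPM. Mmp9 reached 0.852 CPM (4 counts) in the RPMs of mouse 4 labelled IL1RL1-/-, against 0.219 to 0.327 CPM.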

How the results depend on the processing

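Counts of members called were within 1.5 times of the value reported in 143 settings and moved in 8. With at least 10 counts asked of every library, no member passed between pre-RPMs and RPMs, so 0 were called in either genotype. With every gene of at least 1 count kept, 4 members were called between genotypes in pre-RPMs (Ngp, Camp, Ltf, Retnlg), 2 in RPMs (Ngp, Retnlg), 1 in the interaction on monocytes to pre-RPMs (Ngp) and 3 in that on pre-RPMs to RPMs (Ngp, Ltf, Retnlg). The replicate block, which between genotypes joins different animals that share a number, gave 3 in pre-RPMs (Ngp, Camp and Ltf, adjusted p = 0.0214, 0.0373 and 0.0343 in edgeR) and 145 genes in all, against 59. Pre-RPM libraries of one number correlated between genotypes at 0.0452 to 0.155, and what they share was not tested. Within a genotype the replicate block added Chil3 in WT monocytes to pre-RPMs, as given above, and changed no other call. Scaling by total counts alone, chosen after seeing the data, also gave 3 in pre-RPMs. The cause was not tested. It moved the median log2 fold change of all genes to -0.36 from WT monocytes to pre-RPMs, to 0.23 between genotypes in pre-RPMs and to 0.34 in the first interaction. It also turned the split of genes called from 1571 higher and 1205 lower to 1979 and 941 for WT pre-RPMs to RPMs, and from 8 and 5 to 1 and 5 in the interaction on that step. The filter left out 2 members instead of 1 under either scaling by totals. Leaving out 1 library gave 4 to 6 members from monocytes to pre-RPMs in WT, 6 to 7 in knockout-labelled mice, 9 from pre-RPMs to RPMs in both and 0 otherwise. It moved called edgeR fold changes by over 1.5 times on the linear scale in these cases, given here as log2 fold changes. From WT pre-RPMs to RPMs, Lcn2 and Camp had -4.04 and -4.55 without RPM mouse 1 and Retnlg -7.45 without RPM mouse 2. Under the IL1RL1-/- label, that step gave Ltf and Mmp8 -7.78 and -9.82 without RPM mouse 1, Cd177 -9.14 without mouse 2, Chil3 -8.00 without mouse 3, Retnlg -9.57 without mouse 4, and Ltf -5.29 without pre-RPM mouse 3. From monocytes to pre-RPMs, leaving out pre-RPM mouse 3 gave Olfm4 -5.17 in WT and Ltf -3.78 under the IL1RL1-/- label.

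Signs turned only in differences that were not called. Leaving out 1 library gave log2 ranges of between genotypes in monocytes Camp -0.14 to 0.28, Lcn2 -0.14 to 0.39, Ltf -0.06 to 0.48, Mmp8 -0.04 to 0.50, Mmp9 -0.29 to 0.48, Ngp -0.08 to 0.38, Retnlg -0.65 to 0.26; from monocytes to pre-RPMs under the IL1RL1-/- label Cd177 -0.27 to 0.26, Mmp8 -0.05 to 0.36; in the interaction on monocytes to pre-RPMs Chil3 -0.37 to 0.14, Mmp8 -0.30 to 0.27, Mmp9 -0.61 to 0.16, Retnlg -0.87 to 0.10; from monocytes to pre-RPMs in WT Mmp8 -0.11 to 0.45, Mmp9 -0.64 to 0.13; between genotypes in pre-RPMs Mmp9 -0.51 to 0.12. By total counts alone, Cd177 and Mmp8 had -0.03 and -0.24 from WT monocytes to pre-RPMs; Lcn2, Ngp, Camp, Ltf and Mmp9 had -0.08, -0.06, -0.11, 0.00 and -0.12 between genotypes in monocytes; Mmp9 had 0.07 in pre-RPMs; and Cd177, Mmp9 and Chil3 had 0.04, 0.18 and 0.35 in the first interaction. Cd177 from knockout-labelled monocytes to pre-RPMs had 0.00 in DESeq2, 0.08 with the replicate block and 0.01 by total counts. Genes called from WT monocytes to pre-RPMs numbered 396, against 694 in DESeq2, 1094 unfiltered, 772 in the fit of 24 libraries, 904 by total counts and 217 with 10 counts in every library. Over the same settings they ran from 264 to 1060 (543 reported) from knockout-labelled monocytes to pre-RPMs, from 1467 to 3411 (2776) and 1542 to 3740 (2973) from pre-RPMs to RPMs, from 3 to 139 (7), 17 to 265 (59) and 19 to 272 (26) between genotypes in monocytes, pre-RPMs and RPMs, and from 0 to 78 (0) and 3 to 224 (13) in the interactions. In RPMs, most members were near the floor of 3 counts, which limits what a genotype difference there could show.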
